A study of Mus musculus with 1024 samples.

Results

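Immediate early genes are transcribed within minutes of a stimulus without new protein synthesis, and enzymatic dissociation of a tissue is known to raise them. The set described here was a list of 10 such genes, Fos, Fosb, Jun, Junb, Jund, Egr1, Atf3, Ier2, Dusp1 and Zfp36. All 10 were found by symbol among the 24422 genes of the count table. They were measured in single cells of mouse aorta with Smart-seq2, which reads full-length cDNA of polyadenylated RNA from a cell sorted into a well. The labels give every well the strain Amotl2flow/flow / Cdh5-RREert /ROSA26-EYFP and an age of 3 months, and name the mice WT or KO. The study's methods describe a floxed Amotl2 gene on a C57BL/6 background, deleted after tamoxifen by Cdh5(PAC)-CreERT2, whose promoter is active in endothelial cells (ECs). The sources used here do not say whether WT mice carried the Cre or received tamoxifen. Cells came from 6 mice per genotype in 2 preparations, which the labels call sorts and number within each genotype. No label names the mouse, and a preparation was therefore the replicate. Each aorta was digested for 30 min at 37 °C with collagenase, dispase and DNase, depleted of Cd45+ cells with beads and sorted as Cd31+Cd45- (ECs) or Cd31-Cd45- (sorted as control). No undigested aorta was analysed here, so levels before and after dissociation cannot be compared.

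Fos and Jun family proteins pair into the AP-1 transcription factor, and Jun can also pair with Atf3. Serum response factor with its Elk partners, and Creb1 bound to cyclic AMP response elements (CREs), switch these genes on downstream of MAP kinases. Dusp1 and Zfp36 are part of the shut-off, since Dusp1 removes phosphate from MAP kinases and Zfp36 binds AU-rich mRNAs and leads to their decay. In the vessel wall these genes respond to shear stress, stretch, growth factors and injury.

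The 250 bases before the start site were taken from the RefSeq promoter table (GRCm38.p6), which matched 8 of the 10 genes. Ier2 and Egr1 had no entry. The 6 promoters below are shown because each held a motif for a factor of this response. They run 5′ to 3′ on the gene's strand, and capitals mark the motifs found on either strand: the CRE (TGACGTCA), its shorter core (TGACG), the EGR site (GCGNGGGCG) and the CArG box bound by serum response factor.
Fos, chr12:85473640-85473889, plus strand: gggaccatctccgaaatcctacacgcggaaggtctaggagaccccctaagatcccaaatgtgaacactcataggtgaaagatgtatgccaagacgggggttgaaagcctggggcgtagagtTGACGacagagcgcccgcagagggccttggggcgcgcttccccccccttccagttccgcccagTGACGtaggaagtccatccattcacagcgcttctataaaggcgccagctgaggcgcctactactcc
Fosb, chr7:19310046-19310295, minus strand: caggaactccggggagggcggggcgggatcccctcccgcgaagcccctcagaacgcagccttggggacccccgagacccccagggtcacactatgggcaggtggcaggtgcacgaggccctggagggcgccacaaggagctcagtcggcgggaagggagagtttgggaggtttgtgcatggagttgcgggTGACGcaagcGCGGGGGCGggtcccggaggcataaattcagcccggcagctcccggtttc
Junb, chr8:84978749-84978998, minus strand: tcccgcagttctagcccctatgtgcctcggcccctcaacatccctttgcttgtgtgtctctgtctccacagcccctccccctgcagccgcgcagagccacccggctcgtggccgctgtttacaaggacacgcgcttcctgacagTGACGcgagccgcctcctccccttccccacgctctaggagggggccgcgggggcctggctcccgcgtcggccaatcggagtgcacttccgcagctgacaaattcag
Atf3, chr1:191183334-191183583, minus strand: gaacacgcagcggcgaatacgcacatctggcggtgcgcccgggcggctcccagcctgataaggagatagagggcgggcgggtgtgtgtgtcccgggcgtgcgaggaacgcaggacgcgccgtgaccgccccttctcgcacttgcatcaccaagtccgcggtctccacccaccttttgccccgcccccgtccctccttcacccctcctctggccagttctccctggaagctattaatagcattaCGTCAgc
Dusp1, chr17:26508473-26508722, minus strand: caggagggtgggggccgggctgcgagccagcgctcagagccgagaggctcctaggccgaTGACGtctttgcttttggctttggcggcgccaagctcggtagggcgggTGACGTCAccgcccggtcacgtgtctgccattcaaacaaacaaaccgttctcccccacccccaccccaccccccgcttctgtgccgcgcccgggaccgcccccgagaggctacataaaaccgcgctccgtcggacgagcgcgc
Zfp36, chr7:28379229-28379478, minus strand: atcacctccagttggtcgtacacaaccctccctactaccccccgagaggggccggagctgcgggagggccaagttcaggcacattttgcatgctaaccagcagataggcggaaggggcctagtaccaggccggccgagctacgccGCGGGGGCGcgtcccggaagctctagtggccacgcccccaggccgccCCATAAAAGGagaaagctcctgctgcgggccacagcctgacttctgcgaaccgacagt

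A CRE core, which every full CRE also holds, stood in 5 of the 8 promoters matched (Fos, Fosb, Junb, Atf3 and Dusp1), against 17.8% of all 32851 promoter windows of that length. Dusp1 held the one full CRE, 143 bases before its start, a motif found in 1.55% of windows. Zfp36 held the one CArG box, 58 bases before its start, against 1.47% of windows. EGR sites stood in Fosb and Zfp36, against 4.70% of windows, and no window of the 8 held the AP-1 motif TGANTCA, which 6.75% of windows did. Jun and Jund had none of these motifs in their windows. Bases further upstream were not searched, so a motif absent from a window may stand outside it. The RefSeq window of Jund ends upstream of the GENCODE M21 start of that gene, the windows of Atf3, Dusp1 and Zfp36 lie inside their longer GENCODE gene models, and a match is a run of letters, not a bound site.

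Of 1024 sorted wells, 784 passed the minimum of 20000 gene counts and 500 genes, 676 of them Cd31+ and 108 Cd31-. The kept Cd31+ wells numbered 235 and 50 for WT and 302 and 89 for KO in preparations 1 and 2, and the Cd31- wells 42 and 12 for WT and 40 and 14 for KO. Median counts per well ranged from 46891 to 252839 over these 8 sets. Counts were summed over the wells of a set, and a level is given as CPM (counts scaled to a sum of 1000000 gene counts). WT and KO wells stood on separate plates in preparation 1 and shared a plate in preparation 2. The summed level of 10 endothelial markers was 14408 to 17022 CPM in Cd31+ sums and 24.8 to 1233 CPM in Cd31- sums, with Kdr and Emcn at 0 in the latter. Cd31- wells held smooth muscle markers (20452 to 51942 CPM) and fibroblast markers (2833 to 28283 CPM). Leukocyte markers stayed at or below 3.26 CPM, with Lyz2 and Cd3e at 0, and hemoglobin genes were at 0. Markers went against the gate in 21 Cd31+ wells and 1 Cd31- well, the latter in WT preparation 2. Amotl2, counted over the whole gene and so not resolving the deletion, was at 59.9 and 94.0 CPM in the WT and 51.9 and 45.7 CPM in the KO Cd31+ sums (edgeR log2 fold change -0.66, SE 0.32, adjusted p = 1.0). EYFP, the reporter switched on by Cre, was at 2.38 and 0.353 CPM in WT and 113 and 85.5 CPM in KO Cd31+ sums and had no count in Cd31- sums. Its log2 fold change for KO against WT in Cd31+ sums was 6.00 (SE 0.64), which missed the threshold (edgeR adjusted p = 0.0596).

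The 10 genes together made up 0.264% to 0.613% of gene counts in Cd31+ sums and 0.407% to 1.18% in Cd31- sums. Between genes, levels were compared per kilobase of annotated exon. In the Cd31+ sums the order of the median level was Ier2 at 331 CPM per kb, Fos at 253, Junb at 225 and Dusp1 at 172, then Jun at 96.2, Egr1 at 71.7, Zfp36 at 64.0, Atf3 at 18.4, Jund at 5.78 and Fosb at 3.57 CPM per kb. The ranges over the 4 sums overlapped between all neighbours in this order except Zfp36 and Atf3, and Atf3 and Jund. In the Cd31- sums the order ran from Fos at 1358 CPM per kb through Dusp1 at 284, Egr1 at 240, Atf3 at 216, Junb at 190, Ier2 at 160 and Jun at 144 to Zfp36 at 75.5, Fosb at 22.6 and Jund at 8.22 CPM per kb. Ier2 thus led in one gate and came after 5 others in the other, and Atf3 moved up by 4 places.

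**Figure D1:**
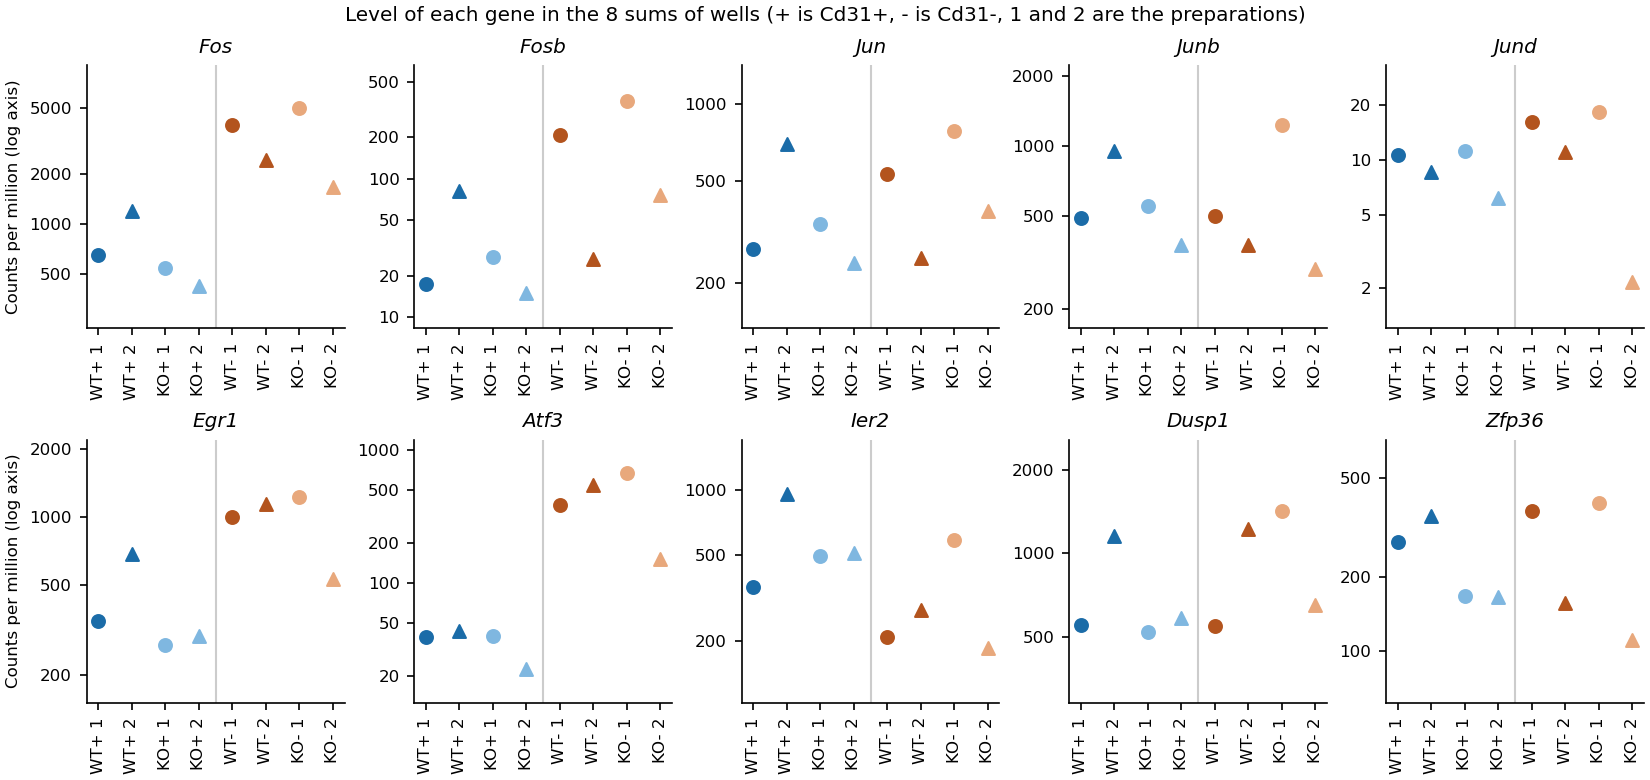
Level of each of the 10 genes in CPM on a log axis in the 8 sums of wells, blue for Cd31+ and brown for Cd31-, darker for WT and lighter for KO, with circles for preparation 1 and triangles for preparation 2. For Fos and Atf3 every Cd31- sum lies above every Cd31+ sum, and the WT Cd31+ sum of preparation 2 is the highest of the Cd31+ sums for all genes except Jund.

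The comparison of the gates asks how levels after digestion differed between ECs and the other cells of the wall. Fos, Egr1 and Atf3 were higher in Cd31- sums, no member was lower, and 7 did not pass the test. Of the 12729 genes tested, 19% were called, 9.25% higher and 9.79% lower, so 3 of 10 stands against that share. The median log2 fold change of the 10 genes was 0.56, against -0.15 over all genes tested. Tests were edgeR's quasi-likelihood test over the 8 sums with Benjamini-Hochberg adjustment, and their p-values measure the spread between preparations.

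Fos, the AP-1 subunit usually induced first, stood at 646 and 1191 CPM in WT and at 545 and 422 CPM in KO Cd31+ sums of preparations 1 and 2. Its Cd31- sums were 3944 and 2443 CPM in WT and 5051 and 1673 CPM in KO. In these Cd31- sums 1 well held 30.0% and 35.1% of the Fos counts in WT and 11.2% and 27.5% in KO. The 2 gates did not overlap, which held for 8.98% of genes tested in that direction. The log2 fold change of Fos was 2.41 (SE 0.40, 95% interval 1.51 to 3.31, edgeR adjusted p = 0.00388). Within preparation 1 the difference in log2 CPM was 2.61 in WT and 3.21 in KO, and within preparation 2 it was 1.04 and 1.99. Fos was called under all 17 alternative settings, with adjusted p from 4.92e-13 to 0.0356.

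Fosb, a second Fos family subunit, had Cd31+ sums of 17.5 and 80.9 CPM in WT and 27.1 and 14.99 CPM in KO. Its Cd31- sums were 206 and 26.3 CPM in WT and 365 and 76.6 CPM in KO. The gates overlapped through preparation 2, where the WT Cd31- sum lay below the WT Cd31+ sum. The log2 fold change of 2.44 (SE 0.76, 95% interval 0.73 to 4.16) missed the threshold (edgeR adjusted p = 0.0538). DESeq2, which called 24.4% of genes in this comparison, called it, as did leaving out either Cd31- sum of preparation 2 and 3 other of the 17 settings. In Cd31- wells with more smooth muscle than fibroblast marker counts the log2 fold change was 0.97 (adjusted p = 0.297).

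The Jun family did not separate the gates. Jun, the main partner of Fos, ranged from 240 to 699 CPM in Cd31+ and from 251 to 788 CPM in Cd31- sums, with a log2 fold change of 0.47 (SE 0.40, 95% interval -0.43 to 1.37). Junb, a Jun relative with a weaker activation domain, ranged from 374 to 946 and from 296 to 1230 CPM, with a log2 fold change of 0.12 (SE 0.43, 95% interval -0.85 to 1.09). Both intervals include a rise of 1 on the log2 scale and neither includes a fall of 1. Jund, which many tissues transcribe steadily and which is the least inducible of the Jun genes, was low throughout. It ranged from 6.26 to 11.2 CPM in Cd31+ and from 2.16 to 18.4 CPM in Cd31- sums, and the KO Cd31- sum of preparation 2 was the lowest. In GENCODE M21, 52.6% of its annotated exon bases overlap Gm11175 on the other strand, a gene that is no row of the table, and its longest coding transcript has a GC content of 67.1%. The part of these features in its low level was not tested.

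Egr1, a zinc finger factor of the serum response, stood at 347 and 687 CPM in WT and 271 and 296 CPM in KO Cd31+ sums. Its Cd31- sums were 1000 and 1149 CPM in WT and 1229 and 534 CPM in KO, so the KO sum of preparation 2 fell below the WT Cd31+ sum of that preparation. In these Cd31- sums 1 well held 24.3% and 40.9% of the Egr1 counts in WT and 13.3% and 33.7% in KO. The log2 fold change was 1.45 (SE 0.34, 95% interval 0.69 to 2.221, edgeR adjusted p = 0.0178). All 4 differences within a genotype and preparation were above 0, from 0.74 to 2.18 in log2 CPM. The call was lost without WT_Cd31pos replicate 1, KO_Cd31pos replicate 1 or 2, or KO_Cd31neg replicate 1, and in wells of at least 100000 counts, and over the 17 settings the adjusted p ran from 8.38e-05 to 0.0815.

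Atf3, a CRE-binding stress factor that forms dimers with Jun proteins, showed the largest log2 fold change of the 10 genes. Its Cd31+ sums were 39.4 and 43.7 CPM in WT and 39.7 and 22.5 CPM in KO. The Cd31- sums were 385 and 546 CPM in WT and 666 and 150 CPM in KO, all above every Cd31+ sum. The log2 fold change was 3.71 (SE 0.48, 95% interval 2.63 to 4.79, edgeR adjusted p = 0.00109), and it was called under all 17 settings, with adjusted p up to 0.0411. Within preparation 1 the log2 difference was 3.29 in WT and 4.07 in KO, and within preparation 2 it was 3.64 and 2.73. Single wells carried much of it in some sums, since 1 well held 55.6% of the Atf3 counts in WT and 52.9% in KO Cd31+ preparation 2, and 44.4% in WT Cd31- preparation 1. After each well was thinned to 20000 counts, so that wells counted alike, the log2 fold change was 3.45.

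Ier2, a short nuclear protein of the early response, was the one member with a log2 fold change below 0. It ranged from 356 to 959 CPM in Cd31+ and from 186 to 588 CPM in Cd31- sums, and the log2 fold change was -0.80 (SE 0.42, 95% interval -1.75 to 0.15, edgeR adjusted p = 0.239). The feedback genes overlapped between gates. Dusp1 ranged from 525 to 1159 and from 550 to 1424 CPM (log2 fold change 0.59, SE 0.38), and Zfp36 from 165 to 351 and from 111 to 399 CPM (0.29, SE 0.42). For Zfp36 and Junb the direction differed between the preparations, with Cd31- above Cd31+ in preparation 1 and below it in preparation 2 for both genotypes.

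**Figure D2:**
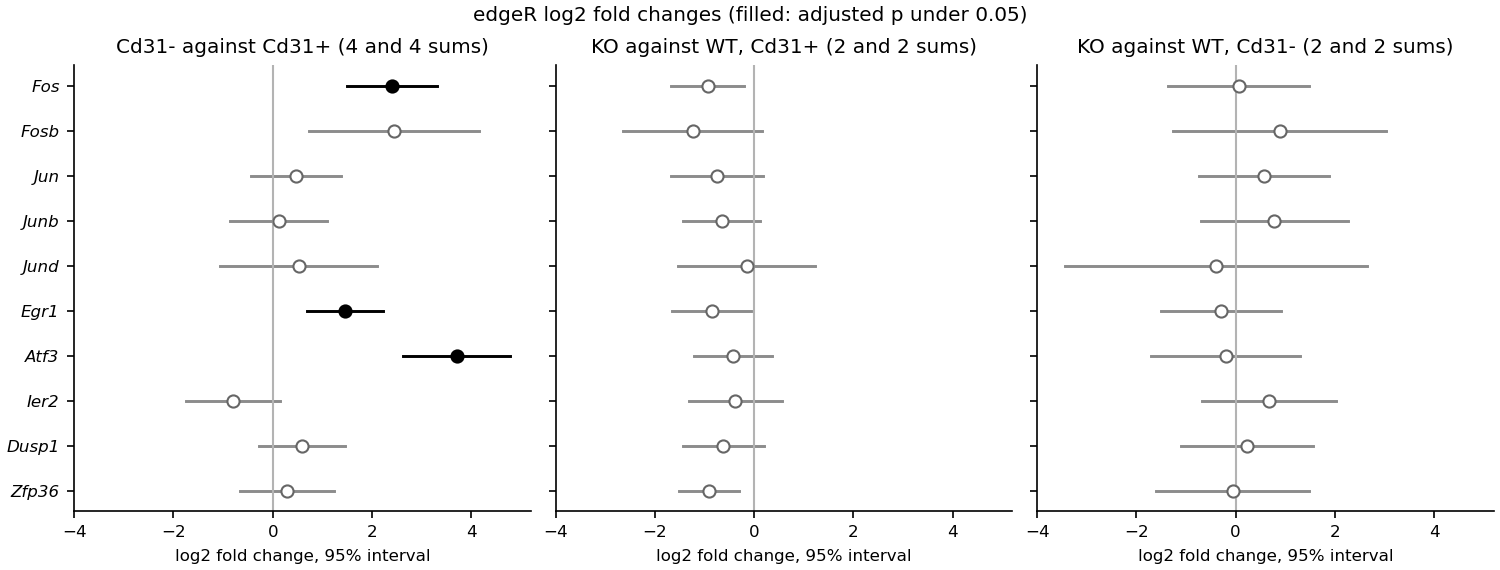
edgeR log2 fold changes of the 10 genes with 95% intervals for Cd31- against Cd31+ sums and for KO against WT sums in each gate, with filled points where the adjusted p was under 0.05. Filled points are Fos, Egr1 and Atf3 in the gate comparison, and all 10 points for KO against WT in Cd31+ sums lie below 0 with none filled.

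The Cd31- gate held more than 1 cell type, and the genes were read again after splitting its wells by marker counts, a split made after the data were seen. The levels of the 2 classes are given without a test. Smooth muscle markers were higher in 70 wells and fibroblast markers in 37. Fibroblast-marker wells made up 26 of 42 in WT and 9 of 40 in KO preparation 1, and 1 of 12 and 1 of 14 in preparation 2. In KO preparation 1, 9 of the 10 genes were higher in fibroblast-marker wells than in smooth muscle-marker wells, with Fosb at 1291 against 86.0 CPM, Jun at 2120 against 387 CPM and Junb at 3180 against 643 CPM. Jund was the exception at 8.70 against 21.4 CPM. In WT preparation 1, 6 of the 10 were higher, with Fosb at 274 against 90.4 CPM and Jun at 726 against 210 CPM. Fos was alike in both WT classes at 3799 and 4188 CPM, and Atf3 was lower in the fibroblast-marker wells, at 253 against 608 CPM. The share of all genes higher in fibroblast-marker wells was not computed, so these counts of genes have no background beside them. With smooth muscle-marker wells alone against Cd31+ wells, Fos (log2 fold change 2.21), Egr1 (1.14) and Atf3 (3.59) were called again by edgeR, 3 of 10 against 23.9% of 12372 genes, and Jun (-0.45) and Junb (-0.64) changed sign without being called.

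**Figure D3:**
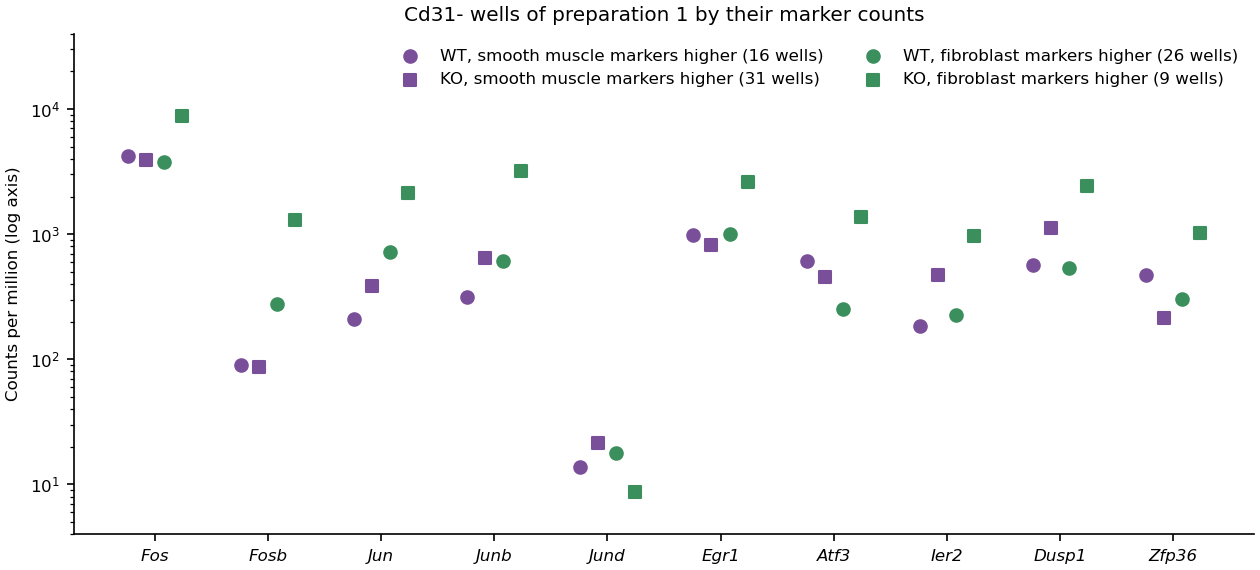
Level of the 10 genes in CPM on a log axis in Cd31- wells of preparation 1, purple for wells with more smooth muscle and green for wells with more fibroblast marker counts, circles for WT and squares for KO. The 9 KO fibroblast-marker wells are the highest of the 4 sets for every gene except Jund, and Fosb and Jun are higher in fibroblast-marker wells of both genotypes.

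The study describes 2 independent experiments, read here as the 2 numbered sorts. The genes were mostly higher in preparation 2 in WT Cd31+ sums and all lower in KO Cd31- sums. In KO Cd31+ and WT Cd31- sums the number higher lay near the share of all genes. In WT Cd31+ sums 9 of the 10 were higher in preparation 2, by a median of 0.97 in log2 CPM, while 46.9% of all genes were. The exception was Jund, at 10.6 and 8.65 CPM. In KO Cd31+ sums 3 of the 10 were higher in preparation 2, with a median of -0.44, against 35.2% of genes with a median of -0.21. In KO Cd31- sums 0 of the 10 were higher in preparation 2, with a median of -1.75, against 46.0% of genes. In WT Cd31- sums 4 of the 10 were, against 49.8% of genes. Over the 8 sums none of the 12729 genes, and so none of the 10, was called between preparations by edgeR (0% called), although 5.51% of genes, none of them a member, had an unadjusted p under 0.05. DESeq2 called 68 genes and no member. Members' log2 fold changes ran from -1.03 (Fosb) to 0.37 (Dusp1) with a median of -0.44, against -0.18 over all genes. With 1 sum per genotype and preparation in a gate, the difference between WT and KO has no test within a gate, and a test across gates was not run.

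In these cells the study compared a KO-specific cluster of ECs with the main WT clusters. Here all kept Cd31+ wells of a genotype and preparation were summed instead. In the 4 Cd31+ sums all 10 genes had log2 fold changes below 0, with a median of -0.70 while the median of the 12702 genes tested was 0.00252 and 50.2% of them were above 0. None of the 10 was called by edgeR, which called no gene here, not even EYFP (0% called). DESeq2 called 37 genes and no member. Fos (log2 fold change -0.93, SE 0.33), Egr1 (-0.86, SE 0.35) and Zfp36 (-0.91, SE 0.27) had an unadjusted edgeR p under 0.05, against 3.68% of genes, with adjusted p = 1.0 for each. In these same 3 genes both WT sums lay above both KO sums, which held for 14.6% of genes. The 95% intervals of the other 7 included 0.

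The direction depended on the WT sum used. Within preparation 1, 6 of the 10 genes were higher in KO, with a median difference of 0.05 in log2 CPM, against 55.7% of all genes with a median of 0.08. Within preparation 2, 0 of the 10 were higher in KO, with a median of -1.15, against 46.2% of all genes with a median of -0.06. Both genotypes shared a plate there. Median counts per well in that preparation were 161532 in WT and 58190 in KO Cd31+ wells. The deepest well of that WT sum had 2000302 of its 11332764 gene counts. The share of a member's counts held by 1 well of that sum ran from 11.9% (Zfp36) to 55.6% (Atf3). When WT_Cd31pos replicate 2 was left out, Fosb (0.28), Jun (0.11), Ier2 (0.53) and Dusp1 (0.04) had log2 fold changes above 0 and no member was called. When WT_Cd31pos replicate 1 was left out, 7 of the 10 were called lower in KO by edgeR against 2.47% of genes, with adjusted p from 6.39e-05 (Fosb) to 0.0382 (Dusp1). That fit has 1 WT sum, whose spread is assumed to be that of the others. After thinning, the log2 fold changes of Fos, Egr1 and Zfp36 were -0.59, -0.69 and -0.72. The 6 smooth muscle and 6 fibroblast markers all had log2 fold changes above 0 in these sums (medians 1.06 and 2.02, none called). In wells whose markers match the gate the changes of Fos, Egr1 and Zfp36 were -1.08, -0.90 and -0.93. That choice keeps wells with lower counts of the other markers, and the part of these markers' cells in the KO difference was not tested.

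In the Cd31- sums, which had no EYFP count, 6 of the 10 log2 fold changes between KO and WT were above 0, against 48.2% of the 10544 genes tested. None of these genes was called by edgeR (0% called, 2.61% with an unadjusted p under 0.05). DESeq2 called 5 genes (0.0474%) and no member. Members ranged from -0.39 (Jund) to 0.88 (Fosb), with SEs of 0.53 to 1.34. Within preparation 1 all 10 were higher in KO, with a median of 0.68 in log2 CPM, against 49.7% of genes. Within preparation 2 only Fosb and Jun were, against 46.5% of genes. The share of fibroblast-marker wells differed between the genotypes in preparation 1, as given above, and its part in this difference was not tested. The difference of the KO effect between the gates was above 0 for 9 of the 10 genes, with a median of 0.94 against -0.05 over all genes, and was called for none of them (0% of 12729 genes by edgeR, 5.16% with an unadjusted p under 0.05, 46 genes and no member by DESeq2).

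Among single wells the counts were compared after thinning each well to 20000 gene counts. Wells are not replicates, so shares carry exact binomial 95% intervals for counting error only and no test. Fos had a count in 64.7% (58.2 to 70.8) of WT and 56.6% (50.8 to 62.3) of KO Cd31+ wells in preparation 1. In preparation 2 it had one in 96.0% (86.3 to 99.5) of WT and 51.7% (40.8 to 62.4) of KO wells. In Cd31- wells the share was 90.5% and 100% in WT and 92.5% and 78.6% in KO. Fos thus had a count in nearly every WT Cd31+ well of preparation 2 and in a smaller share of the KO wells of that preparation. The cause of this gap was not tested. Atf3 had a count in 18.7% and 24% of WT and 9.27% and 8.99% of KO Cd31+ wells, against 45.2% to 65.0% of Cd31- wells. Fosb was found in 14.5% and 46.0% of WT and 18.9% and 17.98% of KO Cd31+ wells. Jund was found in 7.14% to 23.8% of wells over the 8 sets. Without thinning Fos was found in 68.1% of WT Cd31+ wells of preparation 1.

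The median well of WT Cd31+ preparation 2 had counts of 8 of the 10 genes, and none of its 50 wells had fewer than 5. In the other Cd31+ sets the median was 6, 5 and 6 genes, and 7.87% to 10.9% of wells had 2 or fewer. In Cd31- wells the median was 7.5 and 7 in WT and 8 and 5.5 in KO for preparations 1 and 2. The summed thinned count of the 10 genes was at a median of 42 and 110 in WT and 48.5 and 26 in KO Cd31+ wells. Within a Cd31+ set it ranged widely, from 0 to 430 in KO preparation 1. Across wells of a set this sum had a Spearman rho of -0.02 to 0.27 with depth and of 0.02 to 0.35 with the summed heat shock genes, wells of a set sharing plate and preparation.

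**Figure D4:**
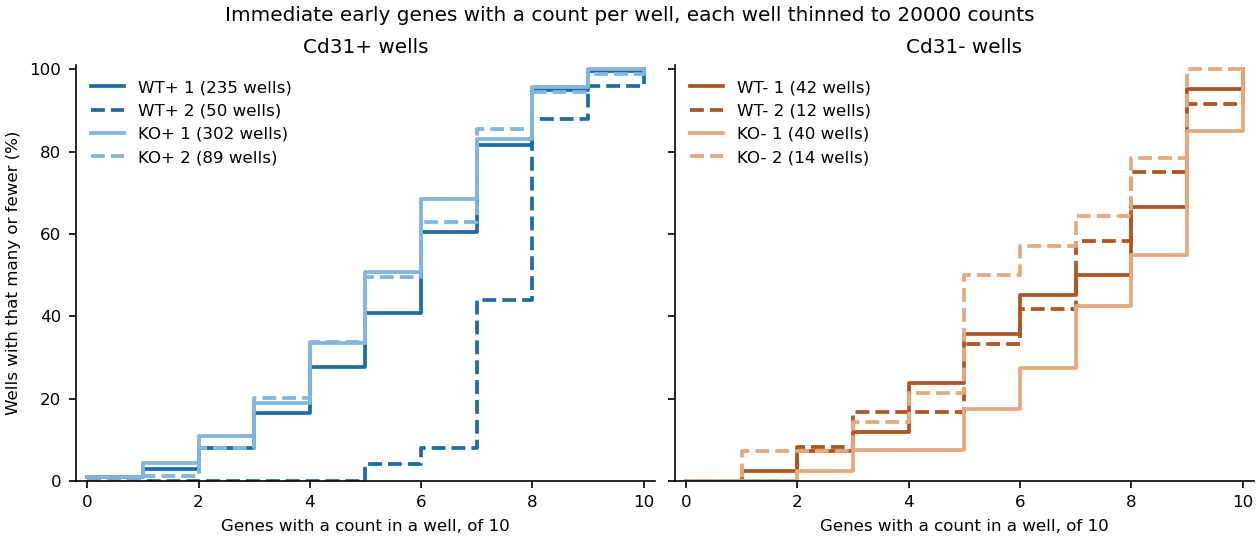
Cumulative share of wells in percent by how many of the 10 genes had a count, each well thinned to 20000 counts, for Cd31+ wells (left) and Cd31- wells (right), with solid lines for preparation 1 and dashed lines for preparation 2. The line of WT Cd31+ preparation 2 lies to the right of the other Cd31+ lines, starting at 5 genes, with a median of 8.

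The genes varied together from well to well. Spearman rho between 2 genes was computed among the thinned counts of each set with at least 20 wells, as a description. The median over the 45 pairs was 0.25 and 0.19 in WT and 0.23 and 0.40 in KO Cd31+ wells, and 0.52 in WT and 0.53 in KO Cd31- wells of preparation 1. Fos and Junb made the pair with the highest mean over the 4 Cd31+ sets, with rho of 0.55, 0.63, 0.45 and 0.70 in WT preparations 1 and 2 and KO preparations 1 and 2. Junb and Egr1 followed with 0.40 to 0.69. The Fos and Egr1 pair ran from 0.19 in WT preparation 2 to 0.68 in KO preparation 2. Jund varied little with the rest, its median rho with the other 9 lying between -0.05 and 0.12 in the 6 sets. Atf3 behaved differently in the 2 gates. Its median rho with the others was 0.09 to 0.17 in Cd31+ wells and 0.54 to 0.56 in Cd31- wells, where its rho with Fos was 0.75 in WT and 0.57 in KO. The counts of Jund and, in Cd31+ wells, of Atf3 were mostly 0, which limits any rho. Among the 31 KO smooth muscle-marker wells alone the median over pairs was 0.36, and among the 26 WT fibroblast-marker wells alone 0.56.

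**Figure D5:**
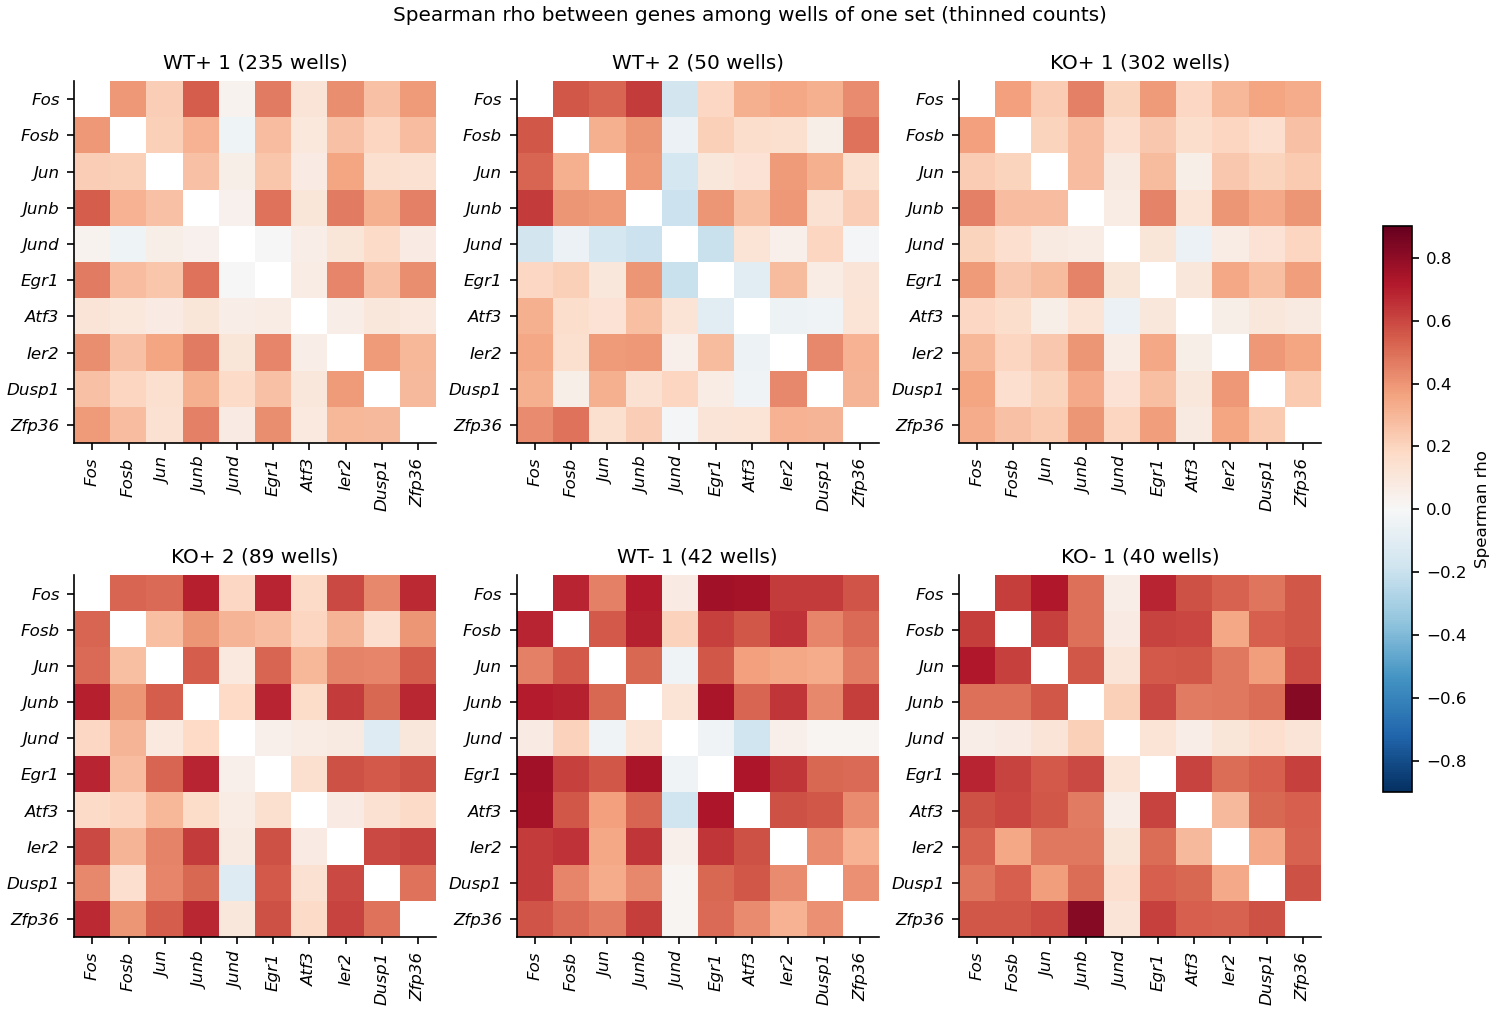
Spearman rho between the 10 genes among wells of each set with at least 20 wells, on thinned counts, red for positive and blue for negative. Rows of Jund are pale in all 6 sets, those of Atf3 are pale in the 4 Cd31+ sets and red in the 2 Cd31- sets, and KO Cd31+ preparation 2 is redder than the other Cd31+ sets.

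The genes most like the set were those with the highest mean rho between their thinned counts and the summed thinned counts of the 10 genes, over the 4 Cd31+ sets and among 5269 genes found in at least 20% of Cd31+ wells. They were Ppp1r15a (0.45), a phosphatase subunit of the stress response, Cyr61 (0.43), a secreted matrix protein, the nuclear receptor Nr4a1 (0.39), Btg2 (0.39), Ier3 (0.32), Klf4 (0.29), Dusp6 (0.27), a phosphatase of ERK, Arl4d (0.27), Sgk1 (0.26) and Id3 (0.26). The 5th and 95th percentiles over all genes compared were -0.08 and 0.10. In the 2 Cd31- sets the leading genes were Nr4a1 (0.66), Gadd45b (0.65), Btg2 (0.61), Bhlhe40 (0.60) and Ppp1r15a (0.59), then Hspa5, Nfkbiz, Klf4, Socs3 and Ccnl1 (0.55 to 0.49). Of the 31 other immediate early genes, 17 were among the 5269 genes compared in Cd31+ wells and gave 7 of the 10 leading genes, and 18 were among the 5077 compared in Cd31- wells and gave 5.

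Other genes of the response, in lists drawn up with the set, were called in both directions between gates. Of the 31 other immediate early genes 3 were higher in Cd31- sums, 4 were lower and 24 were not called (median log2 fold change 0.26), near the 9.25% called higher and 9.79% called lower over all genes. The stress gene Phlda1 ranged from 0.316 to 1.15 CPM in Cd31+ and from 1.01 to 32.9 CPM in Cd31- sums, highest in WT preparation 1. Nr4a1 was at 71.9 to 202 against 206 to 1653 CPM (log2 fold change 2.79) and Gadd45b at 14.2 to 23.8 against 66.8 to 222 CPM (2.79). The zinc finger gene Egr3 went the other way from its relative Egr1, with 8.33 to 20.4 CPM in Cd31+ and at most 1.51 CPM in Cd31- sums. Klf2, Klf10 and Sgk1 were lower as well.

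Of 16 tested feedback genes 5 were higher and 2 lower in Cd31- sums. The counts of this and the following lists stand against 9.25% called higher and 9.79% called lower over all genes tested. Errfi1, an inhibitor of the EGF receptor, was at 10.15 to 17.3 CPM in Cd31+ and 172 to 578 CPM in Cd31- sums (log2 fold change 4.78). Spry1, an inhibitor of growth factor signalling, had at most 1.06 CPM in Cd31+ and 4.05 to 34.7 CPM in Cd31- sums. Dusp6 was at 163 to 294 against 2.02 to 15.5 CPM (-4.28), and Dusp2 had 0.472 to 8.44 CPM in Cd31+ sums and no count in the Cd31- sums, where 3 counts over the 4 sums would be 0.167 CPM. Of 23 upstream genes 1 was higher and 5 were lower. Srf was higher (2.89), and its cofactors Mkl2 (-3.05) and Elk3 (-3.94) were lower, as was the kinase Rps6ka1, which had at most 0.424 CPM in Cd31- sums. Among 8 tested dimer partners Atf4 (1.21) and Mafk (1.13) were higher. Of 11 heat shock genes Hsph1 (1.85), Hspb1 (1.79) and Hsp90aa1 (1.31) were higher.

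No gene of these lists was called between KO and WT or between preparations by edgeR. In the Cd31+ sums the smallest unadjusted p among the other immediate early genes belonged to Gadd45g (log2 fold change -0.93, SE 0.28) and Btg2 (-1.005, SE 0.30), and 22 of the 31 had a log2 fold change below 0, with a median of -0.48. Among heat shock genes it belonged to Hspa1b (-2.76, SE 0.64), at 310 and 98.8 CPM in WT and 14.8 and 43.9 CPM in KO, and Hspa1a (-1.46, SE 0.36). The high WT value of Hspa1b was in preparation 1, whereas 9 of the 10 immediate early genes had theirs in preparation 2.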

How the data were processed

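Single aortic cells of WT and KO mice were sequenced with Smart-seq2 without molecular identifiers, and each count is therefore 1 read. The authors aligned reads with STAR 2.7.7a (reference GRCm38 plus EYFP and the spikes), marked and removed duplicates (Picard 2.22.0) and assigned reads to genes (HTSeq 0.9.1). The annotation release and the strand setting are not given in the sources used here, and the kit does not mark strand. The authors deposited whole-number counts per gene and well, not normalized. Of all counts, 46.9% stood in HTSeq's summary rows (reads on no gene or several places) and 1.25% in spike-ins, and both were left out.

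Wells were grouped by the genotype, preparation and gate in their labels, filtered as the study states, and summed into 8 sets. edgeR 4.0.16 (glmQLFit, TMM, filterByExpr, no replicate block, threshold 0.05 on the Benjamini-Hochberg adjusted p over all genes tested) in R 4.3.3 was the main test and DESeq2 1.42.0 an alternative. A log2 fold change is given with its SE, taken from the F statistic, and a 95% interval. Other values were computed with numpy, pandas and scipy. Counts simulated from these sums, with 200 genes changed among 12729, served to check both tests. For the gate comparison edgeR recovered 0% of changes of 1, 39.5% of changes of 2 and 71.5% of changes of 3 on the log2 scale, with at most 8 false calls. For KO against WT in Cd31+ sums (12702 genes) it recovered 0.5%, 50.5% and 76%. In Cd31- sums (10544 genes) it recovered 0%, 2.5% and 25.5%.

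The labels number the sorts within each genotype, and sums of the same number were taken as a possible pair. No label says that WT and KO cells of the same number were processed together. Between groups, the difference of preparation 2 minus 1 correlated by 0.04 to 0.14 over 12729 genes. A fit with the preparation as a replicate block was therefore run too, and changed no call of a member. That block does not pair the 2 gates of a genotype and preparation. Alternatives were DESeq2, RLE factors, leaving out the filter on low counts or each sum, wells of at least 100000 counts, thinned wells and wells whose markers match the gate. Smooth muscle-marker wells alone and no scaling factors were added after the data were seen. The 10 genes and all lists were chosen with earlier results of these data known. Named were the 10 genes, checks, up to 4 called genes of each list with the largest change (or 2 with the smallest p) and the 10 most similar genes. Klf2, Klf10 and Sgk1 were named beyond this rule, after their values were seen.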

Additional observations from a re-analysis of the deposited data

Results flagged for a closer look

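Between preparations 1 and 2, 6 of the 10 genes moved in opposite directions in WT and KO Cd31+ sums, each group having 1 sum per preparation, and the difference was not tested. Of all genes with counts in both sums, 46.9% were higher in preparation 2 in WT and 35.2% in KO. The share of all genes moving in opposite directions was not computed, so the count of 6 has no background beside it. The WT change minus the KO change, in log2 CPM, was 3.06 for Fosb, 1.87 for Jun, 1.504 for Junb, 1.25 for Fos, 0.96 for Atf3 and 0.37 for Zfp36. For Fosb the WT sum was higher by 2.21 in preparation 2 and the KO sum lower (-0.86). For Zfp36 the KO change was -0.02. Median counts per well differed between these sums, at 119656 and 161532 in WT and 252839 and 58190 in KO. Within Cd31+ sets the summed thinned count of the 10 genes had a Spearman rho of 0.01 to 0.12 with depth. Thinning had already brought wells to equal counts, so this rho does not measure what depth does to the unthinned sums. The part of depth in the difference was not tested.

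The difference between Cd31- and Cd31+ sums had opposite signs in the preparations for Junb and Zfp36, in both genotypes, and was not tested. In Junb it was 0.03 in WT and 1.17 in KO for preparation 1, and -1.34 and -0.34 for preparation 2, a mean gap of 1.44. In Zfp36 it was 0.41 and 1.25 against -1.17 and -0.57, a mean gap of 1.70. The Cd31- sums of preparation 2 held 12 and 14 wells, with 1 fibroblast-marker well each.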

How the results depend on the processing

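With 2 preparations per group the tests could find only large changes, and a missed threshold does not show that levels were alike. Fos and Atf3 were called between gates under all 17 alternatives, and no member was called between preparations, for KO against WT in Cd31- sums or for the difference between gates under any. The count of 2423 genes called between gates was 3101 with DESeq2 and 1355 (without KO_Cd31pos replicate 2) to 2542 when a sum was left out. Without scaling factors the median of all genes in that comparison was -0.26 instead of -0.15. The 0 genes called between preparations became 68 (DESeq2), 3 (thinned wells), 4 (Cd31+ sums alone) and 0 to 3 with a sum left out. The 0 genes called for KO against WT in Cd31+ sums became 104 (no filter), 37 (DESeq2), 8 (thinned wells), 1 with RLE factors, with wells whose markers match the gate, without scaling factors and with the replicate block, and 5 to 311 (without WT_Cd31pos replicate 1) with a sum left out. In Cd31- sums the 0 became 24 (no filter), 5 (DESeq2) and 0 to 79 (without WT_Cd31neg replicate 2), and for the difference between gates 163 (no filter), 46 (DESeq2) and 0 to 42 (without WT_Cd31neg replicate 1). The cause of these changes was not tested. Among members, smooth muscle-marker wells alone turned the gate log2 fold change of Jun (-0.45), Junb (-0.64) and Zfp36 (-0.0121). With a sum left out it ran from -0.55 to 0.45 for Junb, -0.61 to 0.89 for Jund and -0.29 to 0.59 for Zfp36. For KO against WT in Cd31+ sums, leaving a sum out gave -1.97 to 0.28 for Fosb, -1.30 to 0.11 for Jun, -0.52 to 0.14 for Jund, -0.94 to 0.53 for Ier2 and -1.08 to 0.0359 for Dusp1, and thinning gave 0.63 for Atf3. The median share of wells with a count, over 10 genes and 8 sets, was 71.4% in thinned, 81.2% in unthinned wells and 82.6% in wells of at least 100000 counts. The median over the 6 sets of the median rho between members was 0.32 and ran from 0.31 to 0.38 under its alternatives. Within single sets it moved more, from 0.40 to 0.63 in KO Cd31+ preparation 2 with wells of at least 100000 counts (25 wells, 28 pairs), and from 0.53 to 0.36 in KO Cd31- preparation 1 with smooth muscle-marker wells alone.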
